A study of Mus musculus with 26 samples.

Results

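Bone marrow progenitors of the mouse that carry Gata1 transcript were set against progenitors that do not, by pooling 3 sorted populations on each side. The Gata1-positive side held PreGM GFP+, GMP GFP+ and PreMegE cells, with 3 arrays each and 9 in all. The Gata1-negative side held LMPP, PreGM GFP- and GMP GFP- cells, with 4, 3 and 4 arrays and 11 in all. These are 20 of the 26 arrays of the series, and the other 6 came from HSC GFP- and CLP cells. Each side was summarised as the equal-weight mean of its 3 group means, in a fit with a coefficient for each of the 8 groups. A gene was called where the pooled difference, Gata1-positive minus Gata1-negative, had an adjusted p under 0.05 (limma, Benjamini-Hochberg over 19938 genes). It was called separated where all 3 group means of a side lay beyond all 3 of the other. The genes followed here are the 1693 of 19938 (8.49%) that were both, 899 higher and 794 lower on the Gata1-positive side.

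Every group came from Gata1-EGFP Tg/+ mice aged 8 to 15 weeks, so both sides carry the same reporter transgene, in which green fluorescent protein reports on Gata1; promoter details are not in the labels. PreGM and GMP cells are progenitors negative for lineage antigens, Sca1 and CD41 and positive for cKit; GMP cells carry FcgRII/III, and PreGM cells lack it along with CD150 and CD105. Both were divided on the reporter. PreMegE cells share the PreGM antigens except that they carry CD150, and their gate does not name the reporter, so they stand on the Gata1-positive side by their Gata1 transcript. LMPP cells are reporter-negative cells with Sca1, without CD150 and with high Flt3. HSC GFP- cells carry Sca1 and CD150 without Flt3, and CLP cells carry Flt3 and the interleukin 7 receptor with low Sca1 and cKit. The labels do not say whether replicates came from separate mice, so a p-value here weighs only how these samples scatter, and that scatter may be technical. The signals are log2 values, so a difference of 1 is a ratio of 2, and the median signal over all 35556 probe sets and 26 arrays was 6.61. In such sorted pools, fewer cells of a kind and less RNA per cell cannot be told apart.

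GATA1 and GATA2 are zinc-finger transcription factors that bind the word GATA in DNA. GATA1 drives genes of red cells, platelets, mast cells and eosinophils. Its partner FOG1 (Zfpm1) and the factors KLF1, TAL1 and GFI1B act with it in red cells. PU.1 (Spi1) and C/EBPα (Cebpa) drive genes of monocytes, macrophages and neutrophils, and IRF8 those of monocytes and macrophages. GATA1 and PU.1 can each oppose the other. LMPP cells are known for transcripts of early lymphoid cells such as Flt3 and Dntt.

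Gata1 itself lay between 7.92 and 8.74 (median 8.21) in the Gata1-positive arrays and between 6.36 and 7.14 (median 6.49) in the Gata1-negative arrays. No array of either side overlapped the other side, and the pooled difference in Gata1 was 1.77 ± 0.10 (SE; limma, adjusted p = 2.82e-11). The sides were chosen by the Gata1 reporter and transcript, so this difference follows from the grouping and is not a separate finding. The PreMegE mean of Gata1, 8.47 ± 0.32 (SD, n = 3), stood beside 8.48 ± 0.41 in PreGM GFP+ and 8.08 ± 0.15 in GMP GFP+ cells. The highest Gata1-negative array, at 7.14, was a PreGM GFP- array. Fcgr3, Flt3 and Slamf1, 3 of the 10 sort antigen genes measured, were highest where the gates select them. Eng, which encodes CD105, ran from 7.47 to 8.0 in PreGM GFP- cells, which lack CD105, against 6.85 to 7.32 in GMP GFP- cells. The GMP gate as described above does not name CD105, so these values cannot show whether Eng follows a gate. Fcgr3 averaged 9.78 and 9.52 in GMP GFP+ and GMP GFP- cells against at most 7.49 in the other 4 groups. Flt3 was highest in LMPP at 11.44 ± 0.24 (SD, n = 4), and Slamf1, which encodes CD150, was highest in PreMegE at 7.17 ± 0.78 (SD, n = 3). Flt3 and Slamf1 were both among the separated genes, and the gates fix part of both differences. Itga2b, which encodes CD41, was higher on the Gata1-positive side by 1.32 ± 0.09 (limma, adjusted p = 7.00e-10), although those 3 gates take only CD41-negative cells.

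The pooled difference was called in 1112 genes as higher (5.58% of those tested) and in 1253 as lower (6.28%) on the Gata1-positive side. The separated genes made up 80.8% of the higher calls and 63.4% of the lower calls, 4.51% and 3.98% of all genes. Most of their differences were small: the median was 0.35 among the higher and -0.57 among the lower genes, and 585 and 302 of them moved by less than 0.5. A difference of at least 1 was reached by 100 higher and 117 lower genes, and of at least 2 by 20 and 19. Every array of a side lay beyond every array of the other for 86 higher genes (0.431%) and 70 lower genes (0.351%). The median over all genes was 0.07. When each array was centred on its own median, the separated higher genes fell from 899 to 447, and the higher share of the calls went from 47% to 26.9%. The PreGM GFP- arrays weighed most on these counts: without replicate 1 there were 598 separated higher genes, and without replicate 2 there were 1853.

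**Figure D1:**
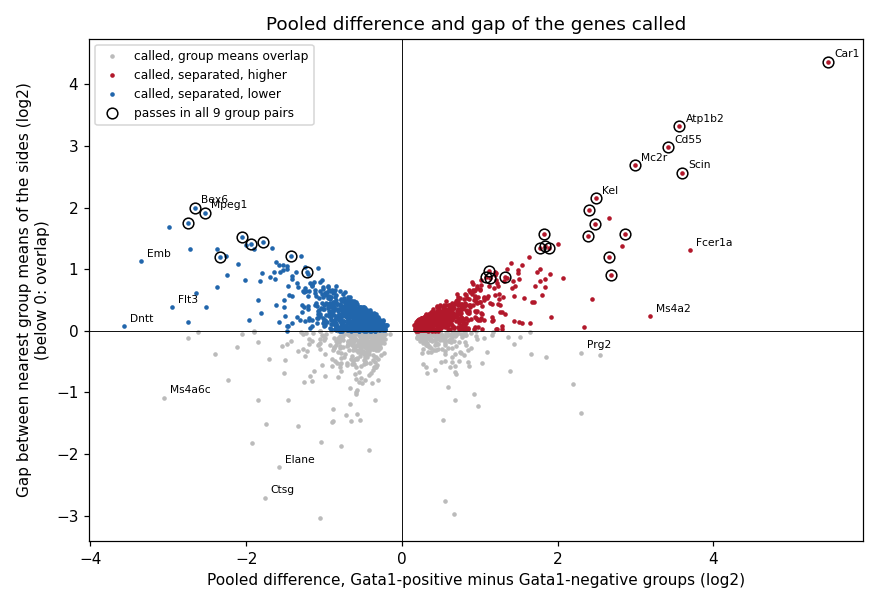
Pooled difference (x axis, log2) against the gap between the nearest group means of the sides (y axis, log2; below 0 the sides overlap) for every called gene. Separated genes are red where higher and blue where lower, other called genes are grey, and circles mark the genes that passed in all 9 pairs of groups; Car1 has the widest gap, 4.37.

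A stricter test asked whether each of the 3 Gata1-positive groups differed from each of the 3 Gata1-negative groups in the same direction, by the largest p of the 9 pairs. It called 20 genes higher (0.1% of those tested) and 9 lower (0.0451%). The higher genes were Car1, Scin, Atp1b2, Cd55, Mc2r, Slc18a2, Mfsd2b, Ces2g, Kel, Apoe, Gnb4, St8sia6, Gata2, 1700006J14Rik, Ell2, Gata1, Itga2b, Gfi1b, Mylk3 and Klf1. The lower genes were Ctss, Bex6, Mpeg1, 1700025G04Rik, Il6st, Macroh2a1, Csf3r, Cd93 and Fkbp1a. The transcription factors Gata1, Gata2, Gfi1b and Klf1 stood among the higher genes, and the receptors for granulocyte colony-stimulating factor (Csf3r) and the shared signalling chain of the interleukin 6 family (Il6st) among the lower. For Gata1 this follows from the choice of the groups.

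Car1, a carbonic anhydrase of early red cell progenitors, had the largest difference of all. Its signal ran from 10.76 to 12.53 (median 12.02) in the Gata1-positive arrays and from 5.48 to 7.20 (median 6.17) in the Gata1-negative arrays, a difference of 5.47 ± 0.18 (SE; limma, adjusted p = 8.39e-16). The nearest group means were 4.37 apart, and the Gata1-negative arrays lay around the median signal of the arrays. Scin, which severs actin filaments, ran from 7.31 to 10.56 (median 8.88) against 4.99 to 5.72 (median 5.32), a difference of 3.59 ± 0.15 (adjusted p = 7.65e-14). It differed within the Gata1-positive side, from 7.89 ± 0.51 (SD, n = 3) in PreMegE to 9.98 ± 0.70 in GMP GFP+ cells (limma moderated F, adjusted p = 1.25e-04). Atp1b2, a subunit of the sodium pump, ran from 9.82 to 11.20 (median 10.16) against 6.47 to 6.92 (median 6.83), a difference of 3.56 ± 0.11 (adjusted p = 7.66e-16).

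Cd55, which shields cells from complement, ran from 7.55 to 9.37 (median 8.47) on the Gata1-positive side and from 4.42 to 5.38 (median 5.06) on the Gata1-negative side, a difference of 3.42 ± 0.19 (limma, adjusted p = 1.27e-11). Mc2r, the receptor for adrenocorticotropic hormone, ran from 6.87 to 7.75 (median 7.41) against 4.21 to 4.90 (median 4.40), a difference of 3.0 ± 0.10 (adjusted p = 8.39e-16). The sides did not overlap in either gene, and both lay below the median signal in every Gata1-negative array. Slc18a2, which loads monoamines into vesicles, ran from 9.38 to 10.40 (median 9.94) against 6.08 to 8.39 (median 6.57), a difference of 2.86 ± 0.11 (adjusted p = 2.36e-14). Here the Gata1-negative groups differed among themselves (moderated F, adjusted p = 1.47e-06): PreGM GFP- averaged 8.15 ± 0.29 (SD, n = 3), LMPP 6.74 ± 0.29 (n = 4) and GMP GFP- 6.31 ± 0.18 (n = 4).

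Apoe, a lipoprotein component, ran from 10.63 to 11.41 (median 11.10) against 7.73 to 9.30 (median 8.67), a difference of 2.48 ± 0.10 (limma, adjusted p = 5.55e-14). Gnb4, a G protein subunit, ran from 8.52 to 9.46 (median 9.09) against 6.17 to 7.41 (median 6.55), a difference of 2.40 ± 0.13 (adjusted p = 9.20e-12). Neither gene had an overlapping array. The glutathione transferase Gstm5 rose by 2.66 ± 0.29 (adjusted p = 9.58e-07), but its Gata1-negative arrays spread from 5.46 to 8.48, and it did not pass in all 9 pairs (adjusted p = 0.573). Ces2g rose by 2.66, the sialyltransferase St8sia6 by 2.38, the elongation factor Ell2 by 1.83 and the kinase Mylk3 by 1.12.

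Among the falls, Bex6 had the widest gap between the nearest group means, 2.0. It ran from 5.68 to 6.72 (median 6.32) on the Gata1-positive side and from 8.14 to 9.51 (median 8.89) on the Gata1-negative side, a difference of -2.66 ± 0.14 (limma, adjusted p = 7.37e-12). Macroh2a1, a histone variant, ran from 9.15 to 10.36 (median 9.60) against 11.11 to 12.14 (median 11.77), a difference of -1.94 ± 0.12 (adjusted p = 1.23e-10). Cd93, a surface lectin-like receptor, ran from 8.82 to 9.50 (median 9.08) against 10.02 to 10.94 (median 10.43), a difference of -1.43 ± 0.11 (adjusted p = 2.46e-09). All 3 genes were without overlap. Mgst2 (-2.99), Cd52 (-2.38), the oxygen-sensing hydroxylase Egln3 (-2.26), Cd69 (-2.11), Adgrl4 (-2.01), Vav3 (-1.91) and the adhesion molecule Alcam (-1.80) also had no overlapping array, yet none of these 7 passed in all 9 pairs. Fkbp1a, which binds the drug FK506, fell by 1.22 and did pass.

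**Figure D2:**
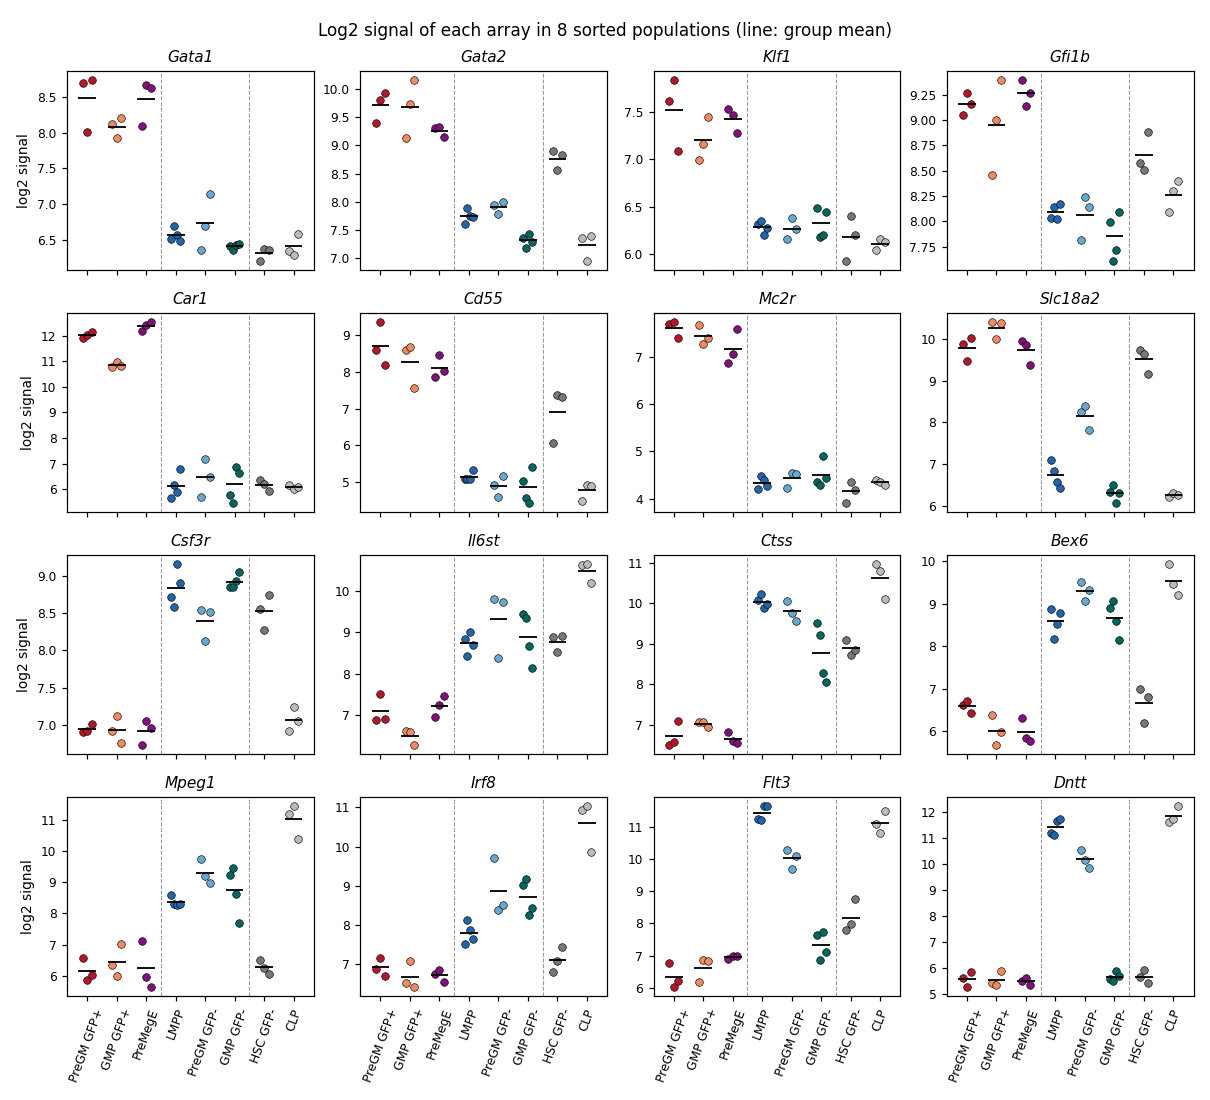
Log2 signal (y axis) of 16 genes in each array of the 8 groups (x axis), with a line at each group mean; the first 3 groups are Gata1-positive, the next 3 Gata1-negative and the last pair outside the comparison. Car1 stays between 10.76 and 12.53 in the Gata1-positive arrays, and Csf3r between 6.73 and 7.12, with no overlap with the Gata1-negative arrays in either.

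Of the transcription factor list of 24 measured genes around the GATA factors, 11 were called higher and 4 lower, and 8 and 1 of these were separated; the median difference was 0.25. Gata2 ran from 9.13 to 10.16 (median 9.39) against 7.18 to 7.99 (median 7.74), a difference of 1.89 ± 0.10 (limma, adjusted p = 9.20e-12). Klf1, an activator of globin and other red cell genes, ran from 6.99 to 7.84 (median 7.45) against 6.16 to 6.49 (median 6.28), a difference of 1.08 ± 0.09 (adjusted p = 7.67e-09). Gfi1b, a repressor needed in red cells and megakaryocytes, ran from 8.46 to 9.40 (median 9.16) against 7.61 to 8.24 (median 8.04), a difference of 1.12 ± 0.10 (adjusted p = 2.86e-08). In all 3 genes every Gata1-positive array exceeded every Gata1-negative array. Zfpm1 (0.79), Nfia (0.82), Nfe2 (0.45) and Tal1 (0.45) were also higher and separated, and Ldb1, Ikzf2 and Myb were higher without separation. Lyl1 fell by 0.53 and was separated; Lmo2, Etv6 and Fli1 fell by 0.47, 0.44 and 0.27 without separation. Runx1 (0.12), Cbfa2t3 (0.27) and Mitf (0.23) were not called.

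Promoters of the genes that passed in all 9 pairs were searched on both strands for a GATA word, which is the letters GATA with A or T before them and A or G after them, in the 250 bases before each RefSeq start site (GRCm38.p6). A promoter was on hand for 16 of the 20 higher genes, with 20 start sites, and 10 of the 16 genes held a GATA word in at least 1 of them. Of all genes tested, 4020 of the 15614 with a promoter did. Counted by start site, 11 of the 20 promoters (55.0%) held the word, against 22.4% of the promoters of all genes tested. Over all separated genes the shares were 24.0% of the promoters of the higher and 15.3% of those of the lower genes, and 31.9% and 18.0% for genes that differed by at least 1. The PU.1 core GAGGAA was in 4 of 8 promoters of the lower genes of the 9-pair test, against 22.6% for all genes tested, but also in 6 of 20 promoters (30.0%) of the higher genes of that test, and in 21.7% and 23.9% of the promoters of all separated higher and lower genes. The Gata1 and Gata2 promoters held no GATA word in this window. These are matches of letters and not sites of binding, which were not measured here. The 120 bases directly before the start are shown for 4 of the higher genes that carry a GATA word there, and for Csf3r with the PU.1 core; capitals mark the words, and the word in Klf1 lies on the opposite strand. They lie on chr8:84901862-84901981 (+) for Klf1, chr2:28621983-28622102 (-) for Gfi1b, chr6:41704326-41704445 (-) for Kel, chr19:59260758-59260877 (+) for Slc18a2 and chr4:126024539-126024658 (+) for Csf3r.
Klf1: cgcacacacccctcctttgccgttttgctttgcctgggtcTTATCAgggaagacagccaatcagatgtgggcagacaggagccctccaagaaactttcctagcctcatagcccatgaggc
Gfi1b: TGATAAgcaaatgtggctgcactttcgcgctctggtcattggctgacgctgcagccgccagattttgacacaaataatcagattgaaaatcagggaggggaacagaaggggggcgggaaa
Kel: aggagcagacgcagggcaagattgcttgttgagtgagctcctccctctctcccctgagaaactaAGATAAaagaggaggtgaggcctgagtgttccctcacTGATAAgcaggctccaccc
Slc18a2: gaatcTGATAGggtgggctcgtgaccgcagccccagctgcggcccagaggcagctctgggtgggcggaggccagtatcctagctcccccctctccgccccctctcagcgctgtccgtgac
Csf3r: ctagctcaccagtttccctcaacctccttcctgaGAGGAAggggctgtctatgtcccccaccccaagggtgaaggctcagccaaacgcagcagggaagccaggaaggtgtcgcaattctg

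Of the red cell genes, 17 of 24 measured were called higher and 16 of these separated, none was called lower, and the median difference was 0.47. The mean of the list ran from 7.28 to 7.85 in the Gata1-positive arrays and from 6.39 to 6.71 in the Gata1-negative arrays, with no overlap. Mfsd2b, which exports sphingosine 1-phosphate from red cells and platelets, ran from 7.52 to 10.60 (median 10.08) against 6.49 to 6.92 (median 6.73), a difference of 2.69 ± 0.08 (limma, adjusted p = 7.66e-16). Its GMP GFP+ mean, 7.72 ± 0.20 (SD, n = 3), was below the 10.25 and 10.28 of PreGM GFP+ and PreMegE (moderated F, adjusted p = 4.54e-11). Kel, the Kell blood group enzyme, ran from 6.65 to 8.73 (median 7.80) against 5.09 to 5.68 (median 5.28), a difference of 2.49 ± 0.17 (adjusted p = 5.39e-10). Icam4 (2.0), the water channel Aqp1 (1.80), Ermap (1.44), Cldn13 (1.35) and the Rhesus genes Rhag (1.21) and Rhd (0.94) rose too. The erythropoietin receptor Epor rose by 0.48, with every Gata1-positive array above every Gata1-negative array.

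Of the heme synthesis and iron genes, 3 of 19 were called higher (15.8%, against 5.58% of all genes), all separated, and 1 lower (5.26%, against 6.28%). With only the gates split by the reporter, 1 was higher and 2 were lower, all separated. Slc11a2, an iron transporter, rose by 1.03 and Urod by 0.45. Alas1, the general first enzyme of heme synthesis, fell by 1.5 (limma, adjusted p = 4.94e-08) without separation, since the LMPP mean (7.08) lay under that of GMP GFP+ cells (7.55). The highest group was GMP GFP- at 10.38 ± 0.21 (SD, n = 4), with the other 5 between 6.79 and 8.26. Without LMPP 3 genes of the list were lower, and without PreGM GFP- replicate 2, or HSC GFP- replicate 1, 5 were higher.

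Megakaryocyte genes were higher in 12 of 22, with 10 separated, none lower and a median of 0.27. F2r, a thrombin receptor, averaged 10.62 ± 0.26 (SD) in PreMegE, 9.72 ± 0.14 in PreGM GFP+ and 8.10 ± 0.06 in GMP GFP+ cells (n = 3 each), against at most 7.97 on the other side. The pooled difference of F2r was 1.64 ± 0.09 (limma, adjusted p = 5.55e-12), and the 3 Gata1-positive groups differed (moderated F, adjusted p = 8.12e-10). Pf4, platelet factor 4, rose by 1.54 ± 0.28 (adjusted p = 4.68e-04), with group means of 7.46 in PreMegE, 6.40 in PreGM GFP+ and 4.81 in GMP GFP+ cells. Without PreMegE, 6 megakaryocyte genes were called and 4 were separated. Over all genes the higher calls then went from 1112 to 707, and the separated higher genes from 899 to 616. Why the list's count fell was not tested. Without PreGM GFP- replicate 1, or with quantile normalization, 6 megakaryocyte genes were separated.

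Mast cell and basophil genes were higher in 15 of 29, with 7 separated and none lower (median 0.36), and eosinophil genes in 8 of 14, with 3 separated and 1 lower (median 0.39). Their levels were uneven within the Gata1-positive side. The mean of the mast cell and basophil list was 8.23 in GMP GFP+, 6.97 in PreGM GFP+ and 6.44 in PreMegE cells, against 6.16 to 6.51 on the Gata1-negative side. Fcer1a, a chain of the high-affinity IgE receptor, averaged 10.56 ± 0.80 (SD) in GMP GFP+, 7.77 ± 0.74 in PreGM GFP+ and 5.63 ± 1.06 in PreMegE cells (n = 3 each), and between 4.26 and 4.32 in the Gata1-negative groups. Its pooled difference was 3.70 ± 0.22 (limma, adjusted p = 4.59e-11). Ms4a2, another chain of that receptor, showed the same order of group means, with 10.87, 8.96 and 5.73, and a pooled difference of 3.18 ± 0.16 (adjusted p = 1.77e-12).

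Gzmb, a granule protease, stood at 11.28 ± 0.16 (SD, n = 3) in GMP GFP+ cells, at 7.07 ± 0.98 in PreGM GFP+ and at 5.83 ± 0.06 in PreMegE, against 5.68 to 5.77 in the Gata1-negative groups. It was separated with a pooled difference of 2.34 (limma, adjusted p = 2.93e-10), although PreMegE and LMPP differed by only 0.06. Prg2, the eosinophil major basic protein, had a pooled difference of 2.30 (adjusted p = 2.13e-06) that came from GMP GFP+ cells at 12.60 ± 0.44 (SD, n = 3). The PreMegE mean (5.99) lay within the Gata1-negative means of 5.93 to 6.35, and that of PreGM GFP+ (6.93) above them. Epx, eosinophil peroxidase, was likewise at 8.92 ± 0.20 in GMP GFP+ cells and between 5.51 and 5.64 in the other 5 groups. With the comparison limited to the gates split by the reporter, 15 mast cell and basophil genes and 6 eosinophil genes were separated, against 7 and 3. Over all genes the separated higher genes then numbered 715, against 899.

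**Figure D3:**
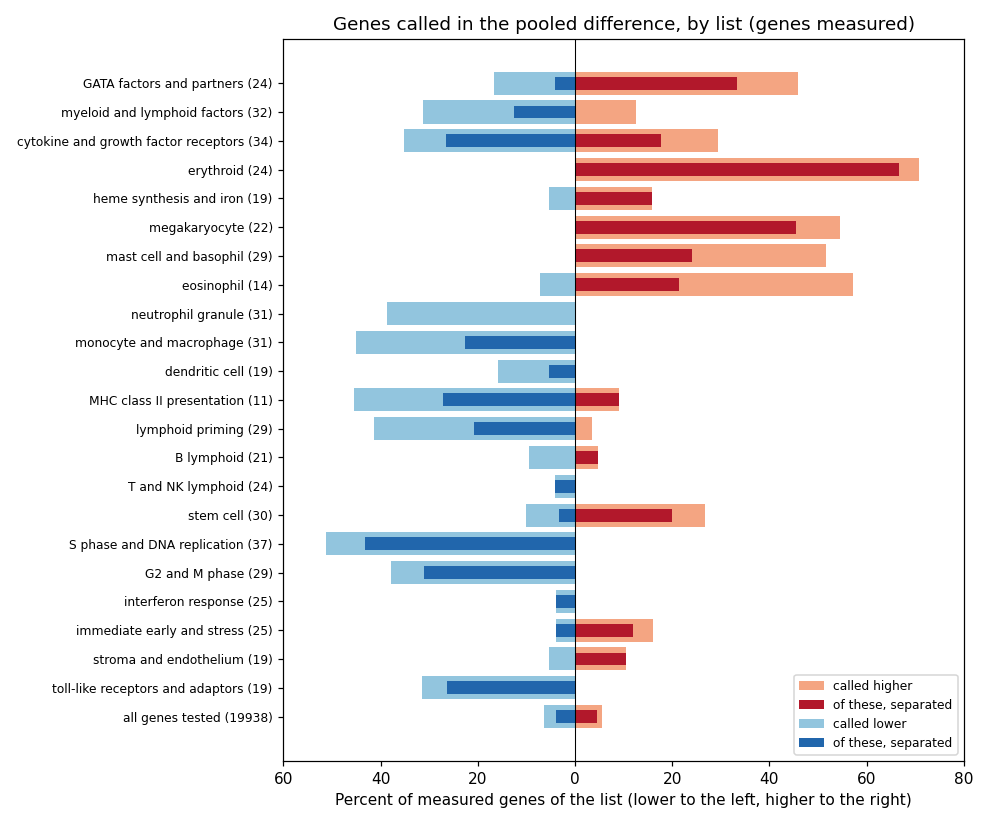
Percent of the measured genes of each list (number in brackets) called higher (right) or lower (left) in the pooled difference, with the separated genes in the darker colour; the last bar gives all 19938 genes. The erythroid, eosinophil, megakaryocyte and mast cell lists extend to the right, and the S phase, monocyte and MHC class II lists to the left.

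Receptor genes moved both ways: of 34 measured, 10 were called higher and 12 lower, with 6 and 9 separated. Besides Mc2r and F2r, the higher and separated genes were F2rl2 (0.71), Kit (0.51), Epor (0.48) and Il5ra (0.43). Il5ra lay below the median signal in every array. It ran from 5.74 to 5.96 in GMP GFP+ cells but from 4.71 to 5.05 in PreGM GFP+ and PreMegE cells, against 4.53 to 5.01 on the Gata1-negative side. The receptors that fell and were separated were Flt3, Il6st, Csf3r, Csf1r, Il4ra, Ifnar2, Tnfrsf1a, Tnfrsf1b and Il6ra. Csf3r ran from 6.73 to 7.12 (median 6.92) on the Gata1-positive side and from 8.13 to 9.16 (median 8.85) on the Gata1-negative side, a difference of -1.79 ± 0.08 (limma, adjusted p = 8.62e-13). Il6st ran from 6.27 to 7.5 (median 6.90) against 8.13 to 9.81 (median 8.85), a difference of -2.05 ± 0.18 (adjusted p = 2.73e-08). In both genes all 9 Gata1-positive arrays lay under all 11 Gata1-negative arrays. Csf1r, the receptor for macrophage colony-stimulating factor, fell by 1.27 ± 0.16 (adjusted p = 5.04e-06). The receptor chains for interleukin 3 and granulocyte-macrophage colony-stimulating factor, Il3ra (0.21), Csf2ra (-0.06) and Csf2rb (-0.14), were not called, and Csf2rb2 rose by 0.64 without separation.

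Among 32 transcription factors of myeloid and lymphoid cells, 10 were called lower and 4 higher, and the separated genes were Irf8, Nfil3, Notch1 and Pou2f2, all lower. Irf8 averaged 6.67 to 6.92 in the Gata1-positive groups and 7.79 ± 0.27 (SD, n = 4) in LMPP, 8.87 ± 0.74 (n = 3) in PreGM GFP- and 8.72 ± 0.44 (n = 4) in GMP GFP- cells. The pooled difference of Irf8 was -1.69 ± 0.18 (limma, adjusted p = 5.46e-07), and no array overlapped. Spi1 fell by 1.03 ± 0.18 (adjusted p = 3.41e-04) without separation: GMP GFP+ cells, at 7.57 ± 0.22 (SD, n = 3), stood above LMPP at 7.49 ± 0.34. Cebpa fell by 0.52 ± 0.11 (adjusted p = 0.00321), and its means crossed as well: GMP GFP+ cells, at 9.22 ± 0.27 (SD, n = 3), stood above PreGM GFP- (9.10) and LMPP (8.37) and under GMP GFP- cells (9.30). Neither Cebpb, Cebpd, Cebpe, Gfi1 nor Klf4 was called. Without PreMegE 6 factors were lower. The separated lower factors numbered 4 as reported, 2 with the replicate block, 1 without GMP GFP+ replicate 3, and 2 when PreGM GFP- replicate 1 or 3, PreGM GFP+ replicate 1 or 2, GMP GFP+ replicate 1, GMP GFP- replicate 4, PreMegE replicate 2 or LMPP replicate 3 was left out.

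Monocyte and macrophage genes were lower in 14 of 31, with 7 separated and none higher (median -0.24). The mean of the list ran from 6.28 to 7.10 in the Gata1-positive arrays and from 6.98 to 8.03 in the Gata1-negative arrays. Ctss, cathepsin S, ran from 6.50 to 7.08 (median 6.81) against 8.06 to 10.22 (median 9.77), a difference of -2.74 ± 0.16 (limma, adjusted p = 1.80e-11). Mpeg1, a pore-forming protein of macrophages, ran from 5.64 to 7.13 (median 6.04) against 7.69 to 9.75 (median 8.63), a difference of -2.53 ± 0.22 (adjusted p = 2.37e-08). Emb, a membrane glycoprotein, had the larger difference, -3.35 ± 0.26 (adjusted p = 5.22e-09), with arrays from 5.11 to 10.27 against 10.79 to 11.31. The spread of Emb was within the Gata1-positive side: its mean was 9.95 ± 0.36 (SD, n = 3) in GMP GFP+ cells, 7.16 ± 1.45 in PreGM GFP+ and 6.21 ± 1.12 in PreMegE.

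F13a1 (-2.75), Ly86 (-2.61) and Ms4a6c (-3.05) were lower and missed separation only because the GMP GFP+ mean lay above the LMPP mean. F13a1 was at 6.51 ± 0.13 (SD, n = 4) in LMPP, under the GMP GFP+ mean of 6.63. Cd53 (-2.40) missed it through GMP GFP+ cells, where it stood at 11.19 ± 0.29 (SD, n = 3), above all 3 Gata1-negative means of 10.81 to 10.87. Without LMPP, 14 monocyte and macrophage genes were separated in place of 7. With fewer groups to clear, the separated lower genes over all genes also went from 794 to 1224. Of 19 toll-like receptor and adaptor genes, 6 were lower and 5 of these separated: Unc93b1, which carries such receptors to endosomes, fell by 1.62, Myd88 by 1.04, Tlr4 by 0.99, Tlr7 by 0.77 and Ticam2 by 0.67. Tlr7 ran from 6.2 to 7.56 in LMPP but from 5.07 to 5.64 in PreGM GFP- and GMP GFP- cells, against 4.72 to 5.3 on the Gata1-positive side. Tlr4 ran from 6.49 to 7.33 in GMP GFP- but from 5.23 to 6.43 in LMPP and PreGM GFP- cells, against 4.59 to 5.78.

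Neutrophil granule genes were lower in 12 of 31 and none was separated (median -0.36). Elane, neutrophil elastase, fell by 1.58 ± 0.13 (limma, adjusted p = 7.96e-09). Its means were 11.47 ± 0.14 (SD, n = 4) in GMP GFP-, 8.88 ± 0.67 (n = 3) in PreGM GFP- and 6.16 ± 0.25 (n = 4) in LMPP, so that LMPP lay under all 3 Gata1-positive groups (6.62, 8.38 and 6.77). Mpo, myeloperoxidase, missed separation too, with 12.88 in GMP GFP+ and 11.33 in LMPP cells. With only the gates split by the reporter, 18 of these genes were lower and 8 separated, and without LMPP 19 and 7. Over all genes, 899 and 1224 lower genes were separated in these fits, against 794 with all 6 groups.

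Genes of lymphoid priming were lower in 12 of 29, with 6 separated, and 1 was higher (median -0.29). With only the gates split by the reporter, 8 were lower. The list averaged 8.32 in LMPP and 8.18 in PreGM GFP- cells, but 7.27 in GMP GFP- cells, against 7.29 to 7.35 on the Gata1-positive side. Dntt, the polymerase that adds bases at antigen receptor joints, averaged 11.44 ± 0.30 (SD, n = 4) in LMPP and 10.18 ± 0.35 (n = 3) in PreGM GFP- cells, but 5.64 ± 0.17 (n = 4) in GMP GFP- cells and 5.47 to 5.57 on the Gata1-positive side. It was separated, with a pooled difference of -3.56 ± 0.12 (limma, adjusted p = 8.39e-16), yet the nearest means were only 0.07 apart. Flt3 fell by 2.96 ± 0.15 (adjusted p = 2.92e-12) and Cd34, a surface sialomucin, by 2.25 ± 0.16 (adjusted p = 5.70e-10). Cd34 was at 7.74 ± 0.65 (SD, n = 3) in PreMegE and 9.04 and 9.44 in PreGM GFP+ and GMP GFP+ cells, against 10.35 to 11.36 on the Gata1-negative side. Of 11 MHC class II presentation genes, 5 were lower and 3 separated (Ctss, H2-Aa and Cd74). This list averaged 7.78 in LMPP and 8.09 in PreGM GFP-, but 7.13 in GMP GFP- cells, against 7.16 to 7.25 on the Gata1-positive side. The GMP GFP- arrays of H2-Aa (6.21 to 6.85) and Cd74 (6.02 to 6.36) lay among the Gata1-positive arrays (5.81 to 6.95 and 5.93 to 6.37). H2-Oa, which modulates peptide loading, rose by 1.05 ± 0.11 (limma, adjusted p = 5.61e-07), with no overlap between the arrays. Without PreGM GFP- replicate 1, 3 MHC class II genes were lower, and without GMP GFP- replicate 1, 1 of them was separated.

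Part of the cell cycle genes were lower on the Gata1-positive side. Of 37 genes of S phase and DNA replication, 19 were lower and 16 separated, none was higher, and the median was -0.41; of 29 genes of G2 and M phase, 11 were lower and 9 separated (median -0.43). The mean of the S phase list ran from 8.34 to 8.68 in the Gata1-positive arrays and from 8.59 to 9.19 in the Gata1-negative arrays, and that of the G2 and M list from 7.76 to 8.69 against 8.11 to 9.06, so the arrays of the sides overlapped in both lists. Rrm2, a subunit of ribonucleotide reductase, fell by 0.86 ± 0.18 (limma, adjusted p = 0.00222) and Kif23, a motor protein of cell division, by 1.10 ± 0.21 (adjusted p = 0.00115). The helicase subunits Mcm3 to Mcm7 fell by 0.33 to 0.70. With quantile normalization 14 S phase and 7 G2 and M phase genes were lower, and without PreMegE 15 and 7.

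Of 30 stem cell genes, 8 were higher and 3 lower. Angpt1 rose by 1.21, Txnip by 1.22 and Tek by 0.95, each separated. The nearest means of Angpt1 were 10.18 in PreMegE and 10.15 in LMPP, and its lowest group was GMP GFP- at 7.05 ± 0.69 (SD, n = 4). Those of Txnip were as close, 10.56 in GMP GFP+ and 10.53 in LMPP. Hlf fell by 1.25 without separation, and with each array centred on its median 6 of the list were lower. In the lists of other cell types, to be read against 5.58% higher and 6.28% lower of all genes, 3 of 19 dendritic cell genes were lower (15.8%). Of B cell genes 1 of 21 was higher (4.76%) and 2 lower (9.52%), and of T and NK cell genes 1 of 24 was lower (4.17%). Of stroma and endothelium genes 2 of 19 were higher (10.5%) and 1 lower (5.26%), and of interferon response genes 1 of 25 was lower (4%). Without LMPP 4 interferon genes were higher, and with each array centred on its median no stroma gene was higher and 3 were lower. In the immediate early and stress list 4 of 25 were higher and 1 lower, with Ddit3 higher by 0.81 and Zfp36 lower by 0.89. Xist was higher by 0.65 (limma, adjusted p = 4.08e-04) and the Y-linked genes Kdm5d (0.11), Uty (0.04) and Eif2s3y (0.03) were not called. Whether mice of both sexes entered every group is not given in the labels. Its part in the results was not tested beyond a fit with the Y-linked signal as a covariate. In that fit 1676 of the 1693 genes were again called in the same direction. Separation used the group means without the covariate, so only the call was tested anew.

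The 3 pairs of groups that share no array gave unequal differences for the same gene. PreGM GFP+ and PreGM GFP- differed at 2.05% of all genes, GMP GFP+ and GMP GFP- at 7.26%, and PreMegE and LMPP at 3.86% (limma, each adjusted over all genes). Of the 899 separated higher genes, 67 were called in all 3 pairs, 79 in 2, 263 in 1 and 490 in none; of the 794 lower genes the counts were 69, 97, 318 and 310. Among the higher genes the highest group was GMP GFP+ for 341, PreMegE for 323 and PreGM GFP+ for 235. Among the lower genes the highest group was GMP GFP- for 395, LMPP for 200 and PreGM GFP- for 199. Differences within the Gata1-positive side were called in 55 of the separated higher and 20 of the separated lower genes, and over all 19938 genes in 1.46%. Within the Gata1-negative side they were called in 31 and 86 of them, and over all genes in 5.5%. Mc2r differed by similar amounts, with 3.18 in the PreGM pair, 2.96 in the GMP pair and 2.82 between PreMegE and LMPP.

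**Figure D4:**
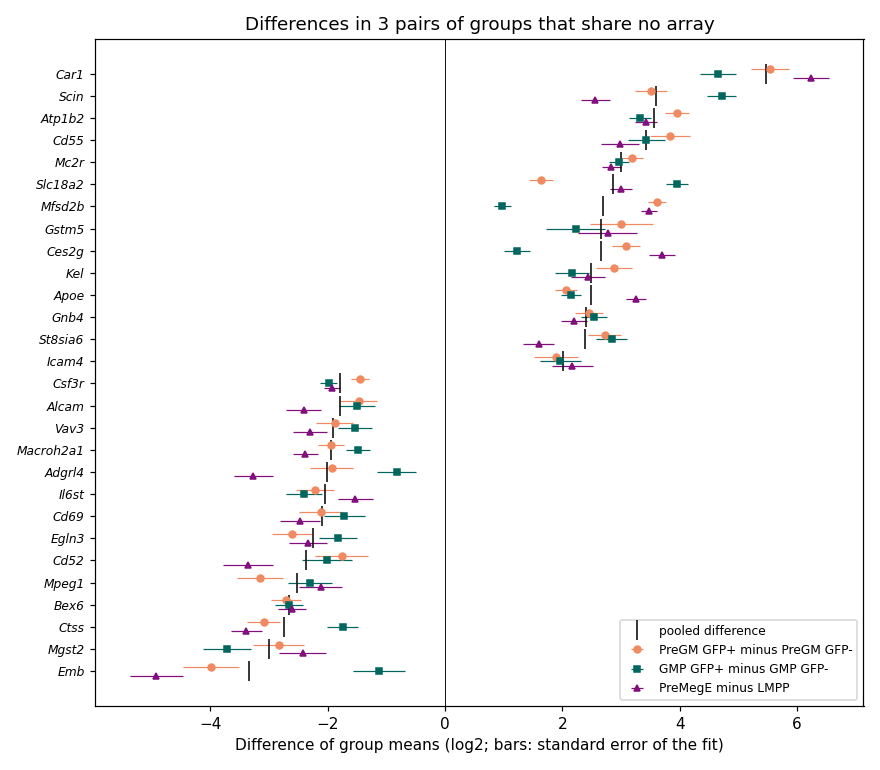
Difference (x axis, log2) of the 28 genes with the largest pooled rise or fall among those whose arrays do not overlap (y axis), in the PreGM pair, the GMP pair and PreMegE minus LMPP, with bars for the standard error and a tick for the pooled difference. Separation gives every difference the sign of the pooled one; they run from 0.98 for Mfsd2b in the GMP pair to 6.23 for Car1 between PreMegE and LMPP among the higher genes.

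The means of HSC GFP- and CLP cells did not enter the difference or the separation, but their arrays did enter the shared estimate of spread. Among the 899 higher genes, HSC GFP- cells were called above CLP cells in 101 (11.2%, against 3.11% of all genes) and below them in 5 (0.556%, against 2.99%). Among the 794 lower genes, HSC GFP- cells were below CLP cells in 152 (19.1%) and above them in 28 (3.53%). The median difference was 0.06 in the higher and -0.26 in the lower genes, against 0.0 in all genes. With the genes chosen on the 20 arrays compared and HSC GFP- and CLP fitted on their own 6 arrays, which shares no array between the choice and the test, 61 of 826 higher genes were called above CLP (7.38%, against 1.68% of all genes) and 1 below (0.121%, against 1.49%). Of 799 lower genes, 86 were called below (10.8%) and 20 above (2.5%). Slc18a2 was at 9.50 ± 0.31 (SD, n = 3) in HSC GFP- and at 6.26 ± 0.05 in CLP cells, a difference of 3.24 ± 0.20 (SE; limma, adjusted p = 2.36e-10). Gata2 differed by 1.53 ± 0.19 (adjusted p = 6.76e-06), while Gata1 (-0.10), Klf1 (0.07), Car1 (0.07) and Mc2r were not called between these cells. Dntt was lower in HSC GFP- cells by 6.21 ± 0.21 (adjusted p = 7.36e-15), Mpeg1 and Irf8 were lower too, and Tfec ran the other way, higher by 4.07 ± 0.46 (adjusted p = 2.45e-06).

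**Figure D5:**
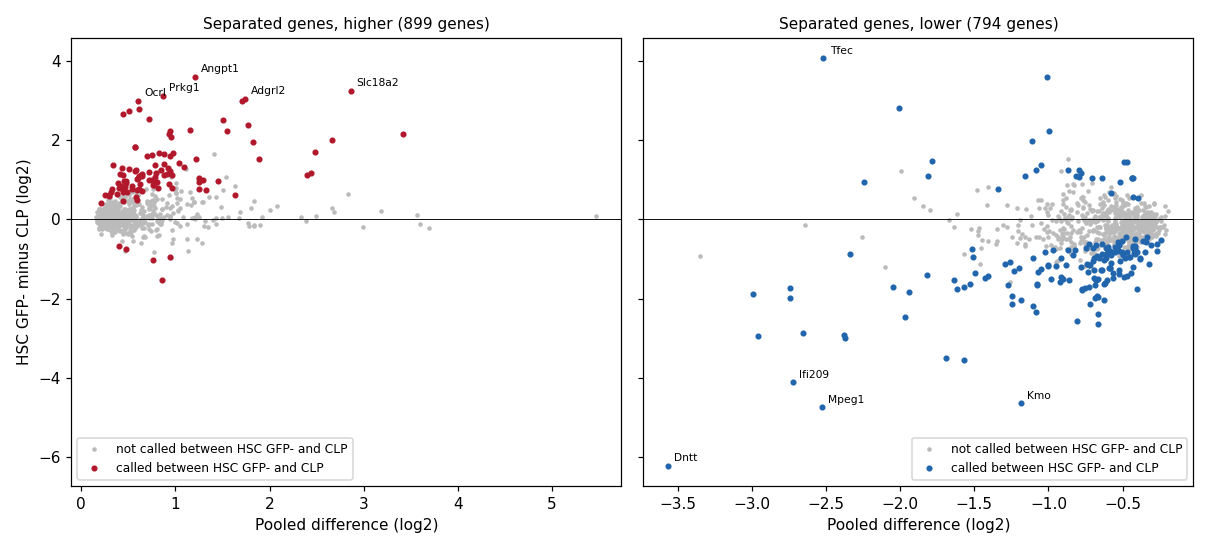
HSC GFP- minus CLP (y axis, log2) against the pooled difference (x axis, log2) for the separated higher (left, 899 genes) and lower (right, 794 genes) genes; coloured points were called between HSC GFP- and CLP. On the left 101 coloured points lie above 0 and 5 below, and on the right 28 lie above and 152 below.

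HSC GFP- cells stood at or beyond the nearest Gata1-positive group mean in 303 of 899 higher and 371 of 794 lower genes, and between the sides in 324 and 192. CLP cells stood there in 155 higher and 156 lower genes, and at or beyond the nearest Gata1-negative group mean in 456 and 467. The threshold of separation cut close in some genes. Rgs4 (0.18) and H2-Aa (-1.48) were just inside, with nearest means less than 0.01 apart, and Esrp2 (0.20) and Kcnj2 (-0.56) just outside. The largest called differences outside were Prkch, Rnase12, Prg2, Cpa3 and Slc14a1 among the higher genes and Ms4a6c, F13a1, Ly86, Cd53 and Clec12a among the lower.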

How the data were processed

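RNA from cells sorted on surface antigens and the reporter was hybridised to Affymetrix Mouse Gene 1.1 ST arrays, per the labels' protocols. The deposited log2 values were made by the authors with RMA and the oligo package, per the submitters' processing notes; versions, background steps and the base of the logarithm are not given in the sources used here, and base 2 was taken from the values. GEO's platform annotation named 1 gene for 21789 of 35556 probe sets, several for 1621 and none for 12146, and 21698 were matched to RefSeq by Entrez identifier. Where a gene had several probe sets (999 genes), the one with the highest mean was kept, leaving 19938 genes.

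The fit used limma 3.58.1 in R 4.3.3 with a coefficient for each of 8 groups over all 26 arrays, moderated t and F tests, and Benjamini-Hochberg adjustment over 19938 genes at 0.05. The 9-pair test took the largest one-sided p of the 9 pairs in a direction, doubled the smaller direction and adjusted it likewise. The scripts were tested on simulated data. Named genes were, among separated genes whose arrays do not overlap, the 14 largest changes each way and the 6 widest gaps each way, then up to 5 called genes per list with the largest change, any gene of the factor, receptor and sort antigen lists, and genes at the edges of separation. The members, gene lists and tests were chosen with earlier results of these data known. Lists are described by counts and medians and were not tested as sets. Arrays of a group correlated at 0.95 to 0.989, no pair of arrays was identical, and array medians over all probe sets lay between 6.42 and 6.7; the number of arrays limits the precision. The alternatives were other scalings, filters, probe set rules and estimates of spread, array weights, a replicate block, other group choices and each array left out, with the fits without the arrays of widest residuals, with the Y-linked covariate and with HSC GFP- and CLP apart chosen after seeing the data. Promoter sequences are RefSeq's for GRCm38.p6.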

Additional observations from a re-analysis of the deposited data

Results flagged for a closer look

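The 28 genes examined had the largest differences among separated genes whose arrays do not overlap, with clone names passed over. In them, 56 sets of 4 arrays were searched for an array that stood apart from the others of its group, by Dixon's criterion at 95%. Such arrays numbered 4, and chance alone flags about 1 in 20. They were Atp1b2 in GMP GFP- replicate 3 (6.69), Cd55 in LMPP replicate 4 (5.33), Mpeg1 in LMPP replicate 1 (8.58) and Vav3 in GMP GFP- replicate 4 (8.62). That none of these arrays crossed to the other side of its gene follows from the choice of genes without overlap. It is not a separate finding.

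The effect of the reporter differed between the GMP and PreGM gates in 4 of the 28 genes, by a test of the difference itself (limma, adjusted over all genes). The difference between GFP+ and GFP- cells was larger in GMP than in PreGM cells by 2.32 for Slc18a2 (adjusted p = 3.07e-05). It was smaller in GMP cells for the red cell and platelet transporter Mfsd2b (-2.64, adjusted p = 6.01e-08) and for the carboxylesterase Ces2g (-1.86, adjusted p = 0.00314). For Emb, which was lower in GFP+ cells of both gates, the value was 2.86 (adjusted p = 0.0371), a smaller fall in GMP cells.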

How the results depend on the processing

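Centring each array on its median gave 606 higher and 447 separated higher genes in place of 1112 and 899, and 1241 of its 1591 separated genes were shared with the 1693. Without PreMegE there were 707 higher and 808 lower genes (1253 as reported), and without LMPP 1224 separated lower genes in place of 794. With arrays weighted by precision the 9-pair test called 13 higher genes in place of 20, and differences were called within the Gata1-positive side in 115 of the separated genes (75 as reported) and within the Gata1-negative side in 214 (117). The 9-pair test called 14 lower genes in place of 9 without the PreGM GFP- and PreMegE arrays of widest residuals, and 14 with the Y-linked covariate. With HSC GFP- and CLP fitted apart from the 20 arrays that then chose the genes, 81 genes were higher and 87 lower in HSC GFP- in place of 129 and 157; with the 20 arrays alone that difference was not run, since they hold neither group. With the replicate block, 969 genes were higher and 1215 lower, 772 and 766 of them separated. Only the calls could change there, since separation used the same group means. The labels do not say whether the numbers pair the samples. Once group means were removed, same-numbered arrays of different groups correlated at -0.26 to 0.33 (46 pairs, median 0.03). Differently numbered ones correlated at -0.29 to 0.31 (120 pairs, median -0.01), which does not settle whether samples were shared. Leaving out each array in turn gave ranges of 785 to 2194 higher genes, 940 to 1664 lower genes, 598 to 1853 separated higher genes, 601 to 1038 separated lower genes, 14 to 23 higher genes in the 9-pair test, 6 to 13 lower genes in it, 55 to 79 separated genes that differed within the Gata1-positive side, 97 to 137 within the Gata1-negative side, 99 to 138 separated genes higher in HSC GFP- than in CLP, and 121 to 171 lower in HSC GFP-. Of the named genes only Fcgr3 reversed, without LMPP, from 0.09 to -0.65 (adjusted p = 0.00722). Of 163 called genes among 209 named, 43 lost their call under at least 1 alternative; the cause was not tested. The lower side averaged under that level in 426 of the 899 higher genes and 102 of the 794 lower.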
